A study of Mus musculus with 16 samples.

Results

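Aminoacyl-tRNA synthetases join each amino acid to its own tRNAs, so every codon that a ribosome reads depends on them. Mammalian cells carry separate nuclear genes for the cytosolic enzymes and, with a few shared exceptions, for those imported into mitochondria, where they charge the tRNAs that read the mitochondrial genome. Many of the cytosolic genes are known targets of ATF4, the transcription factor of the amino acid and integrated stress response. The 36 synthetase genes described here were taken by name from the table of 21977 genes, 20 encoding cytosolic enzymes and 16 encoding mitochondrial ones with symbols ending in 2, a rule on names that uses no measured value. All 36 were present and all passed the filter on low values.

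The values come from ribosome profiling of mouse embryonic stem cells, in which ribosome-protected fragments (RPF, the mRNA pieces that ribosomes shield from nuclease) and total RNA were sequenced from each of 8 cultures. The 3 Nat1-/- cultures were B12, B2 and C3, the 3 Nat1+/- cultures were A7, B4 and C1, and the 2 WT cultures were WTex1 and WTex2. Nat1 is another name of Eif4g2, which encodes a relative of the initiation factor eIF4G without its cap-binding partner site. All 8 cultures were grown with LIF on gelatin. The labels name RF8 as the wild-type line and give every targeted culture a line name of its own, without describing the allele or its driver. Differences among the targeted cultures are therefore differences among lines, and the WT spread is that of a single line. Where values are listed below, they run in the order B12, B2, C3, then A7, B4, C1, then WTex1, WTex2.

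RPF libraries held 17480387 to 23777667 reads and total RNA libraries 13206434 to 42562496 reads, with B12, WTex1 and WTex2 the deepest in total RNA. Among the synthetases the lowest read numbers in any culture were those of Wars2, with 56 RPF and 104 total RNA reads. The Eif4g2 RPF values were 1089, 1114 and 922 in Nat1-/- cultures, 10261, 7608 and 7275 in Nat1+/- cultures and 17666 and 13862 in WT cultures, which follows the labels. Summed RPF of 5 embryonic stem cell markers (Pou5f1, Sox2, Nanog, Esrrb and Zfp42) lay between 105387 and 122443 in Nat1-/- cultures, between 72715 and 78788 in Nat1+/- cultures and at 62146 and 80427 in WT cultures. For 5 fibroblast markers (Col1a1, Col1a2, Col3a1, Acta2 and Thy1) the sums were 113 to 151 in Nat1-/- cultures, 381 to 1317 in Nat1+/- cultures and 3450.0 and 10493 in WT cultures. The sums for 4 primitive endoderm markers (Gata6, Gata4, Sox17 and Pdgfra) were 54.0 to 76.3, 78.1 to 172 and 42.7 and 65.8 in the same order, and no marker was at 0 in every culture. These marker levels move with genotype, and their part in the synthetase values was not tested. In such bulk samples fewer cells of a type and less RNA per cell cannot be told apart.

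The cytosolic and mitochondrial genes went different ways between Nat1-/- and Nat1+/- cultures. In RPF, 8 of 16 mitochondrial genes rose and 1 fell, against 1 of 20 cytosolic genes that rose and 4 that fell. In total RNA, 4 mitochondrial genes rose and 2 fell, and 7 cytosolic genes fell with none rising. The median log2 difference of RPF was 0.42 over the mitochondrial genes, -0.11 over the cytosolic genes and 0.02 over all genes tested. In total RNA the medians were 0.22 for the mitochondrial genes, -0.36 for the cytosolic genes and 0.01 for all genes. The difference between the 2 lists was described by these counts and not tested.

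A call here means a limma adjusted p below 0.05 on log2(normalised reads + 1), so that all differences are on that scale. In RPF, 14 of the 36 synthetases were called between Nat1-/- and Nat1+/- cultures, 9 higher and 5 lower, where 36.1% of all 13110 genes tested were called, 17.6% higher and 18.6% lower. In total RNA, 13 were called, 4 higher and 9 lower, where 40% of all 13813 genes were called, 19.8% higher and 20.2% lower. The number of calls was thus close to the background in both assays. The split by compartment lay mainly in mitochondrial genes higher in RPF and cytosolic genes lower in total RNA. Scaling the libraries to equal sums kept 14 calls in RPF but moved the split to 6 higher and 8 lower, with 5 mitochondrial genes higher and 3 lower and 1 cytosolic gene higher and 5 lower. All genes shifted too under this scaling. Their median RPF difference moved from 0.02 to -0.06, and the share of calls that were higher from 48.6% to 39.0%. Groups did not overlap for 20 of the 36 genes in RPF, 11 higher and 9 lower, against 48.2% of all genes, 24.6% higher and 23.5% lower. In total RNA they did not overlap for 17, 7 higher and 10 lower, against 50.2% of all genes, 25.6% higher and 24.6% lower. Leaving out culture B2 left 6 calls in RPF and 7 in total RNA, leaving out A7 left 9 and 8, and leaving out C1 left 9 in RPF. Among all genes these settings called 2821 and 3608 without B2, 3723 and 4500 without A7, and 3721 in RPF without C1. The main fit called 4737 and 5519.

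**Figure D1:**
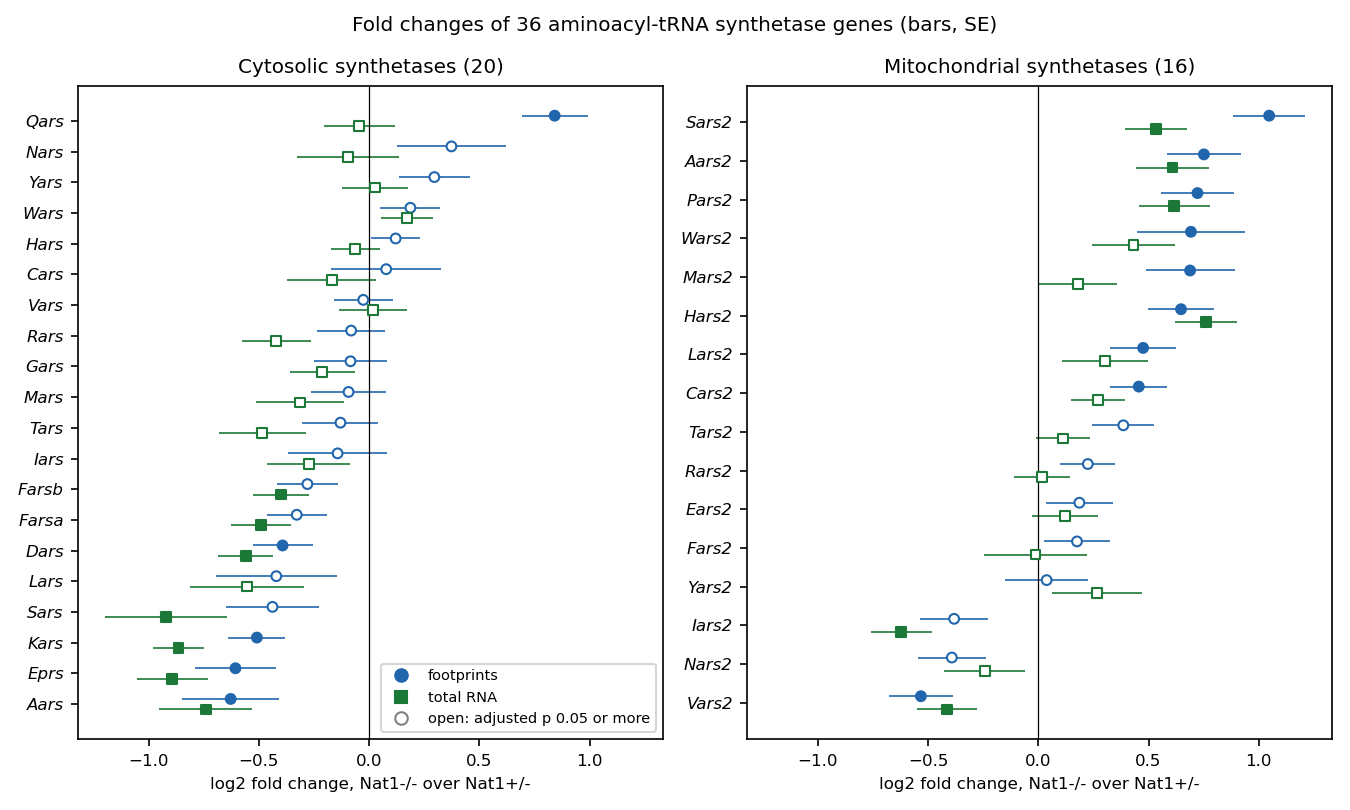
Log2 difference of RPF and of total RNA, Nat1-/- minus Nat1+/-, for the 20 cytosolic and 16 mitochondrial synthetases, with bars of 1 SE and filled points for calls at an adjusted p below 0.05. Mitochondrial genes sit mainly above 0 and cytosolic genes mainly below 0, with medians of 0.42 and -0.11 in RPF and 0.22 and -0.36 in total RNA.

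Kars, the lysyl enzyme, whose gene supplies both the cytosolic and the mitochondrial form, had the lowest adjusted p of the family. Its total RNA values were 5792, 6189 and 5621 in Nat1-/- cultures, 10001, 11640.1 and 10468 in Nat1+/- cultures and 9305 and 10314 in WT cultures. Every Nat1-/- culture was below every other culture. The difference between Nat1-/- and Nat1+/- cultures was -0.87 ± 0.12 (SE, adjusted p = 0.00048). Kars RPF values were 9891, 9431 and 8103 in Nat1-/- cultures, 12319, 13299 and 13309 in Nat1+/- cultures and 13186 and 13338 in WT cultures, again with all Nat1-/- cultures lowest, and the difference was -0.51 ± 0.13 (SE, adjusted p = 0.0137). Both Kars calls held in each of the 18 alternative settings, although the largest adjusted p reached 0.04999 in RPF.

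Eprs encodes the bifunctional enzyme that charges both glutamate and proline tRNAs, and Dars the aspartyl enzyme. Eprs RPF values were 17659, 16478 and 18154 in Nat1-/- cultures, 24679, 32777 and 23058 in Nat1+/- cultures and 11692 and 16301 in WT cultures, and total RNA values were 12777, 12671 and 14819.5 in Nat1-/- cultures, 24134, 29931 and 21331 in Nat1+/- cultures and 9481 and 12378 in WT cultures. The Nat1+/- cultures were the highest in both assays, with the Nat1-/- cultures below all of them and above both WT cultures. Between Nat1-/- and Nat1+/- cultures Eprs differed by -0.61 ± 0.18 (SE, adjusted p = 0.027) in RPF, a call lost without B2, A7 or B4 (adjusted p up to 0.098), and by -0.89 ± 0.16 (SE, adjusted p = 0.00215) in total RNA, which held in every setting. Dars had RPF values of 8445, 7651 and 8168 in Nat1-/- cultures, 10942, 11942 and 9142 in Nat1+/- cultures and 5659 and 5962 in WT cultures, and total RNA values of 6318, 5698 and 6317 in Nat1-/- cultures, 9485, 9854 and 7794 in Nat1+/- cultures and 4311 and 4509 in WT cultures. The order of the genotypes was the one seen for Eprs and no groups overlapped. Dars differed by -0.39 ± 0.14 (SE, adjusted p = 0.0466) in RPF, a call that was lost without any 1 of 7 of the 8 cultures (adjusted p up to 0.161), and by -0.56 ± 0.13 (SE, adjusted p = 0.00624) in total RNA, which held in every setting.

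Aars, the alanyl enzyme, had RPF of 11723, 13963 and 17517 in Nat1-/- cultures, 24957, 22478 and 18876 in Nat1+/- cultures and 14603 and 23709.9 in WT cultures. Nat1-/- and Nat1+/- cultures did not overlap, while the 2 WT cultures spanned both groups. The difference was -0.63 ± 0.22 (SE, adjusted p = 0.0477) in RPF, lost without any 1 of 5 of the cultures (adjusted p up to 0.146), and -0.74 ± 0.21 (SE, adjusted p = 0.0191) in total RNA, lost without B2, A7 or B4 (adjusted p up to 0.0674). Sars, the seryl enzyme, was chosen as the counterpart of Sars2 and had total RNA of 2969, 4192 and 6617 in Nat1-/- cultures, 9286, 8421 and 7159 in Nat1+/- cultures and 4726 and 7955 in WT cultures. B12 was the lowest and C3 the highest of its Nat1-/- cultures, and all 3 lay below the Nat1+/- cultures. It fell by 0.92 ± 0.28 (SE, adjusted p = 0.0243) in total RNA, a call lost without B12, B2, A7 or B4 (adjusted p up to 0.0766), and its RPF difference of -0.44 ± 0.21 (SE, adjusted p = 0.129) was not called.

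Farsa and Farsb encode the catalytic and the other subunit of the phenylalanyl enzyme, and both fell in total RNA. The Farsa values were 2533, 2678 and 2458 in Nat1-/- cultures and 3922, 3307 and 3579 in Nat1+/- cultures, with no overlap, and the difference was -0.49 ± 0.14 (SE, adjusted p = 0.0169), a call lost without A7 (adjusted p = 0.0653). Farsb, named here after its values were seen, differed by -0.40 ± 0.13 (SE, adjusted p = 0.0302) in total RNA, a call lost without B12, B2, A7 or B4 (adjusted p up to 0.0917). In RPF the same subunits differed by -0.33 and -0.28 and neither was called. Synthetases fall into 2 structural classes by the fold of the catalytic domain. Beside Eprs, the 6 cytosolic genes that fell in total RNA (Aars, Dars, Farsa, Farsb, Kars and Sars) were 6 of the 10 class II genes, and limma called 0 of the 9 class I genes, with 1 (Rars) at an unadjusted p below 0.05, where 40% of all genes were called and 20.2% were lower. Rars was called lower by edgeR (adjusted p = 0.0441) and by DESeq2 (adjusted p = 0.0316). Without C3, limma called the class I genes Lars (-0.85, adjusted p = 0.00779), Iars (-0.47, adjusted p = 0.0316) and Rars (-0.48, adjusted p = 0.0403) lower in total RNA. Tars of class II was also called lower without C3, at -0.69 (adjusted p = 0.00823). The split of calls by class thus depended on C3. The class II median was -0.49 and the class I median -0.17, and the difference between the classes was not tested.

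Qars, the glutaminyl enzyme, was the only cytosolic synthetase whose RPF rose. Its RPF values were 7112, 6657 and 5799.5 in Nat1-/- cultures, 3831, 3049 and 4086 in Nat1+/- cultures and 4162 and 4768 in WT cultures. All 3 Nat1-/- cultures lay above the 5 others. Its total RNA values were 3991, 5325 and 5263 in Nat1-/- cultures, 5346, 4306 and 5340.4 in Nat1+/- cultures and 3369 and 4308 in WT cultures, where the genotypes overlapped. The RPF difference between Nat1-/- and Nat1+/- cultures was 0.84 ± 0.15 (SE, adjusted p = 0.00283), and it was called in all 18 alternative settings. In total RNA the difference was -0.05 ± 0.16 (SE, adjusted p = 0.843).

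**Figure D2:**
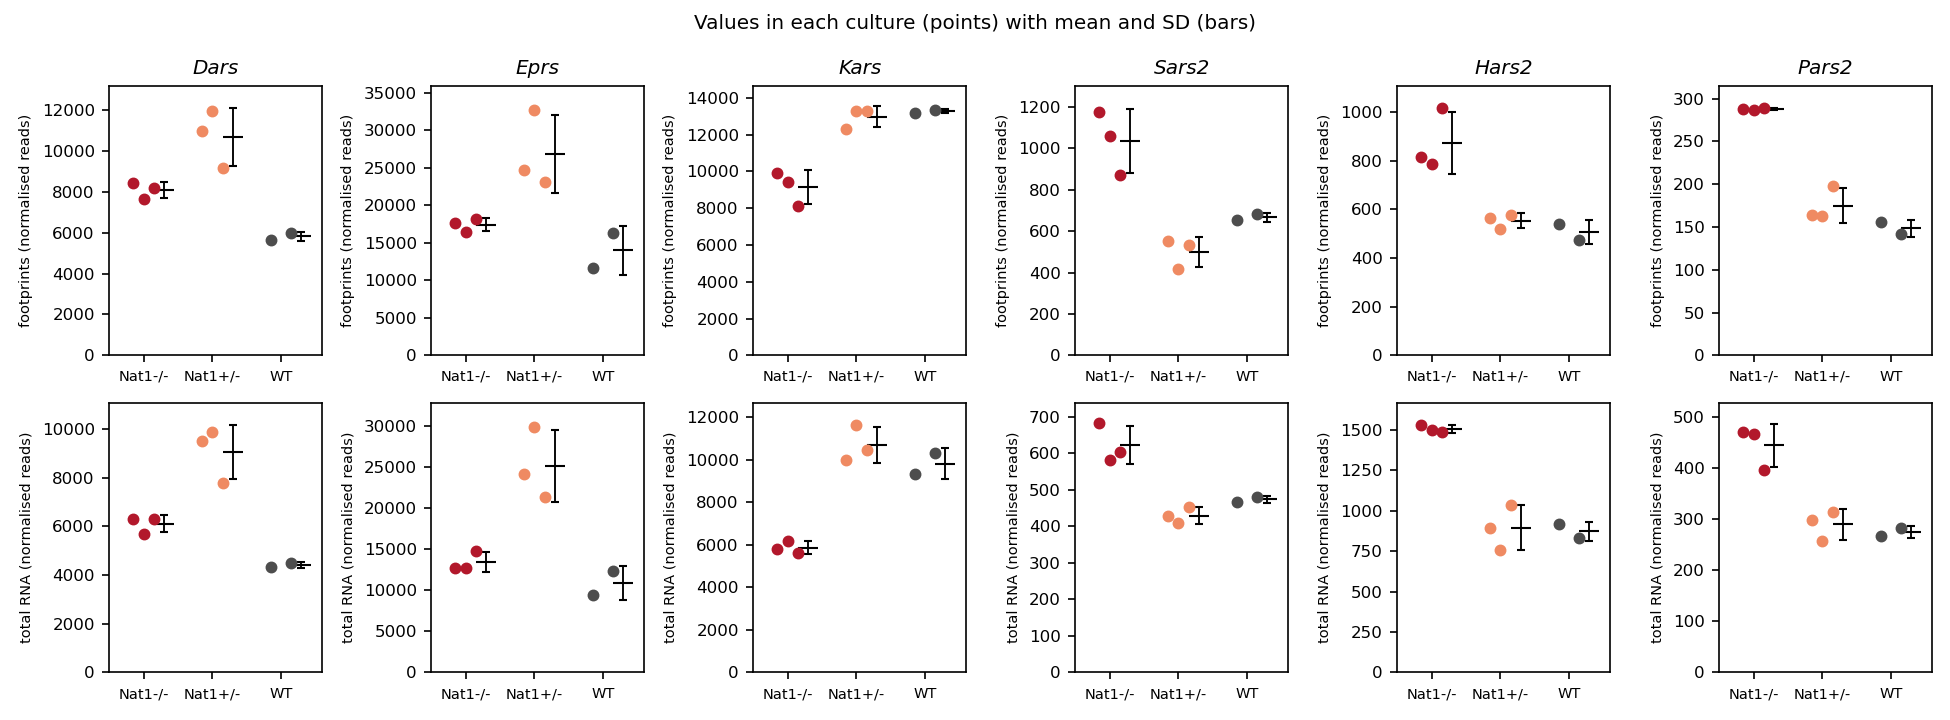
Normalised reads in each of the 8 cultures for Dars, Eprs, Kars, Sars2, Hars2 and Pars2, with RPF in the upper and total RNA in the lower row, and Nat1-/-, Nat1+/- and WT from left to right with lines at the group means. Kars is lowest in all 3 Nat1-/- cultures, Dars and Eprs are highest in the 3 Nat1+/- cultures, and the 3 mitochondrial genes are highest in the Nat1-/- cultures.

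Dars, Eprs, Iars, Kars, Lars, Mars, Qars and Rars encode the enzymes of the multisynthetase complex, a cytosolic assembly held together by the scaffold proteins of Aimp1, Aimp2 and Eef1e1. In total RNA all 8 enzyme genes had negative differences between Nat1-/- and Nat1+/- cultures, with a median of -0.49. Of these 3 were called, where 40% of all genes were called and 20.2% were lower. In RPF 7 of the 8 were negative, 3 called lower and Qars called higher, with a median of -0.27. Over all genes 36.1% were called in RPF, 17.6% higher and 18.6% lower. Of the 3 scaffold genes, Aimp1 fell in total RNA by 0.69 ± 0.14 (SE, adjusted p = 0.00457), and the other two differed by -0.25 and -0.08 and were not called. No scaffold gene was called by limma in RPF, where 0 of 3 had an unadjusted p below 0.05 and the differences were -0.12, -0.08 and -0.04.

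The other cytosolic genes (Cars, Gars, Hars, Iars, Lars, Mars, Nars, Rars, Tars, Vars, Wars and Yars) were not called in RPF or total RNA between Nat1-/- and Nat1+/- cultures. Their RPF differences ran from -0.42 for Lars to 0.37 for Nars, and their total RNA differences from -0.55 for Lars to 0.17 for Wars. Rars and Tars came nearest to a call in total RNA, at -0.42 ± 0.16 (SE, adjusted p = 0.053) and -0.48 ± 0.20 (SE, adjusted p = 0.0738). Reads of overlapping genes may be shared, which bears on Aars (with Ddx19b), Farsb (with Sgpp2), Wars (with Wdr25), Mars (with Ddit3), Iars2 (with Rab3gap2), Rars2 (with Orc3) and the pair Hars and Hars2, whose gene spans overlap in RefSeq. The sources used here do not say whether strand was used in counting, so the split of reads within these pairs is uncertain.

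Among the mitochondrial enzymes Sars2, the seryl enzyme, had the largest RPF difference. Its RPF values were 1174, 1059.5 and 869 in Nat1-/- cultures, 549.8, 417 and 532 in Nat1+/- cultures and 652 and 683 in WT cultures. Every Nat1-/- culture was above both WT cultures, which were above every Nat1+/- culture. Between Nat1-/- and Nat1+/- cultures the difference was 1.05 ± 0.16 (SE, adjusted p = 0.00145). In total RNA the values were 682, 582 and 604 in Nat1-/- cultures, 428, 407 and 452 in Nat1+/- cultures and 467 and 479 in WT cultures, in the same order, and the difference was 0.53 ± 0.14 (SE, adjusted p = 0.0131). Both calls held in all 18 alternative settings.

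Hars2, Pars2 and Aars2, the histidyl, prolyl and alanyl enzymes, rose in both assays. The RPF values of Hars2 were 816, 785 and 1016 in Nat1-/- cultures, 564, 518 and 578 in Nat1+/- cultures and 541 and 473 in WT cultures, and its total RNA values were 1534, 1497 and 1488 in Nat1-/- cultures, 892, 757 and 1038 in Nat1+/- cultures and 915 and 829 in WT cultures. All 3 Nat1-/- cultures were above the 5 others in each assay, and the differences from Nat1+/- were 0.65 ± 0.15 (SE, adjusted p = 0.00851) in RPF and 0.76 ± 0.14 (SE, adjusted p = 0.00255) in total RNA. For Pars2 the RPF values were 288, 287 and 289 in Nat1-/- cultures, 164, 163 and 198 in Nat1+/- cultures and 155 and 141 in WT cultures, with the 3 Nat1-/- cultures nearly equal and above all others. Pars2 differed by 0.72 ± 0.17 (SE, adjusted p = 0.00868) in RPF and by 0.62 ± 0.16 (SE, adjusted p = 0.0132) in total RNA. Aars2 had RPF values of 1455, 1349.9 and 1348 in Nat1-/- cultures, 878, 641 and 985 in Nat1+/- cultures and 743 and 813 in WT cultures, again with no overlap, and differed by 0.75 ± 0.17 (SE, adjusted p = 0.0074) in RPF and by 0.61 ± 0.16 (SE, adjusted p = 0.0154) in total RNA. The total RNA calls of Pars2 and Aars2 were lost without B2, with adjusted p-values of 0.0579 and 0.0665.

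The other mitochondrial genes that rose in RPF are named here after their values were seen, namely Mars2 at 0.69, Wars2 at 0.69, Lars2 at 0.48 and Cars2 at 0.46 on the log2 scale. Each of these calls was lost when at least 1 culture was left out, for Wars2 in 7 of 8 cases, with an adjusted p of up to 0.147. In total RNA the same genes had differences between 0.18 for Mars2 and 0.43 for Wars2, and none was called.

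Vars2 and Iars2, the valyl and isoleucyl enzymes, went the other way. Vars2 RPF was 337, 346 and 392 in Nat1-/- cultures, 545, 512 and 496 in Nat1+/- cultures and 346 and 408 in WT cultures, with the Nat1+/- cultures above the 5 others. It differed by -0.53 ± 0.15 (SE, adjusted p = 0.0184) in RPF, a call lost without B2 or A7 (adjusted p up to 0.072), and by -0.42 ± 0.14 (SE, adjusted p = 0.0343) in total RNA, lost without any 1 of the 5 cultures B12, B2, A7, B4 and C1 (adjusted p up to 0.0828). The total RNA values of Iars2 were 2911, 3259.8 and 3694 in Nat1-/- cultures, 4913, 5731 and 4539.7 in Nat1+/- cultures and 2779.9 and 3148 in WT cultures, so that the Nat1+/- cultures were again the highest. The Iars2 difference was -0.62 ± 0.14 (SE, adjusted p = 0.00602) in total RNA, which held in all 18 settings, and -0.38 ± 0.15 (SE, adjusted p = 0.0774) in RPF, not called. The genes not yet named (Ears2, Fars2, Nars2, Rars2, Tars2 and Yars2) were not called in either assay, and their RPF differences ran from -0.39 for Nars2 to 0.39 for Tars2. Iars2 and Eprs lie close together on chromosome 1, with Bpnt1 between them in the RefSeq order of genes, and both were highest in the Nat1+/- cultures.

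Setting each mitochondrial gene against the cytosolic gene for the same amino acid gave 13 pairs. The mitochondrial member had the more positive difference between Nat1-/- and Nat1+/- cultures in 9 pairs in RPF and in 10 in total RNA, and the median gap was 0.51 in RPF and 0.44 in total RNA. For serine the RPF differences were 1.05 for Sars2 and -0.44 for Sars, and for alanine 0.75 for Aars2 and -0.63 for Aars. Histidine gave 0.65 for Hars2 and 0.12 for Hars, which lie head to head on chromosome 18. Valine ran in the opposite direction, with -0.53 for Vars2 and -0.03 for Vars. So did isoleucine, at -0.38 for Iars2 and -0.14 for Iars, asparagine, at -0.39 for Nars2 and 0.37 for Nars, and tyrosine, at 0.04 for Yars2 and 0.30 for Yars. The bifunctional Eprs fell in RPF by 0.61, whereas its mitochondrial counterparts differed by 0.72 for Pars2 and by 0.19 for Ears2, and Ears2 was not called. Farsa and Fars2, the phenylalanyl catalytic chain in each compartment, differed by -0.33 and 0.18 in RPF, and neither was called.

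Genes that handle charged tRNA were compared as a neighbouring part of the same pathway. In mitochondria, glutaminyl-tRNA is made by Ears2 and an amidotransferase of Qrsl1, Gatb and Gatc. Of 9 mitochondrial handling genes, Tufm, the mitochondrial elongation factor that carries charged tRNA to the ribosome, rose in RPF by 0.50 ± 0.18 (SE, adjusted p = 0.0488), and Qrsl1 fell by 0.71 ± 0.21 (SE, adjusted p = 0.025). Tufm RPF overlapped between the genotypes, at 908 in C3 and 938 in C1. Gatb and Gatc differed by 0.08 and 0.21 in RPF and were not called, and in total RNA Qrsl1 alone was called, at -0.57. Of 12 cytosolic handling genes, the elongation factor genes Eef1a1 and Eef1b2 rose in RPF by 1.11 and 1.04, and Dtd1, which removes D-amino acids from tRNA, fell by 1.10. C3 was the lowest Nat1-/- culture for both elongation factor genes. Eef1b2 RPF values were 36747, 24897 and 12279 in Nat1-/- cultures and 9892, 11797 and 11151 in Nat1+/- cultures, with C3 near B4. In total RNA Dtd1 fell by 1.35 and Eef1d, another elongation factor subunit gene, by 0.35. Over all genes 17.6% were called higher and 18.6% lower in RPF, and 19.8% and 20.2% in total RNA. Over the 9 mitochondrial handling genes 7 RPF differences were positive, with a median of 0.21, and 1 gene was called higher, near the 17.6% of all genes called higher in RPF. In total RNA 6 were positive, with a median of 0.02.

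Translational efficiency (TE) was taken as the log2 ratio of RPF to total RNA in a culture, and its difference between genotypes was tested as an interaction of assay and genotype. Ratios of the cytosolic genes were higher in Nat1-/- than in Nat1+/- cultures in nearly every case. The TE difference was positive for 19 of 20 cytosolic and 12 of 16 mitochondrial genes, with medians of 0.20 and 0.18, against 0.01 over all 12933 genes tested. The fit without a culture term called 0 of the 36 genes, with 3 at an unadjusted p below 0.05, where 0.58% of all genes were called, 0.0309% higher and 0.549% lower. RPF and total RNA came from the same culture, and with a culture term in the fit 8 genes were called, all higher, where 15.8% of all genes were called, 6.49% higher and 9.26% lower. edgeR on the whole reads with the same term also called 8. Ratios of Nat1-/- and Nat1+/- cultures did not overlap for 22 of the 36 genes, 21 higher and 1 (Yars2) lower, where 37.2% of all genes did not overlap, 18.5% higher and 18.7% lower. With the culture term the number of calls fell to 2 without B2, B4 or C1, to 3 without A7 and to 4 without B12, and was 9 without C3. Among all genes the calls numbered 2037 with every culture, and 943, 1096 and 874 without B2, B4 or C1. They numbered 759 without A7, 1425 without B12 and 2944 without C3.

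The 6 cytosolic genes called with the culture term were Qars, Nars, Sars, Kars, Rars and Tars, and the mitochondrial ones Sars2 and Mars2. The Qars ratios were 1.78, 1.25 and 1.102 in Nat1-/- cultures, 0.717, 0.708 and 0.765 in Nat1+/- cultures and 1.24 and 1.11 in WT cultures. Every Nat1+/- culture was below all 5 others, and B12 stood above the remaining cultures. The Qars TE difference between Nat1-/- and Nat1+/- cultures was 0.89 ± 0.15 (SE, adjusted p = 0.00411) with the culture term and 0.89 ± 0.22 (SE, adjusted p = 0.0933) without it. Ratios of Nars, the asparaginyl enzyme, were 2.04, 2.06 and 2.102 in Nat1-/- cultures, 1.46, 1.51 and 1.504 in Nat1+/- cultures and 1.902 and 1.89 in WT cultures. The 3 cultures of each genotype lay close together, with Nat1-/- highest and Nat1+/- far below both other genotypes, although its RPF and total RNA were not called. The Nars TE difference was 0.47 ± 0.08 (SE, adjusted p = 0.00442) with the culture term and 0.47 ± 0.37 (SE, adjusted p = 0.77) without it. Nars and the genes that follow it here, apart from Kars, Sars and Sars2, were chosen for this description after their values were seen.

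For Kars the ratios were 1.71, 1.52 and 1.44 in Nat1-/- cultures, 1.23, 1.14 and 1.27 in Nat1+/- cultures and 1.42 and 1.29 in WT cultures, so that its total RNA fell further than its RPF and all Nat1-/- ratios were highest. The TE difference with the culture term was 0.36 ± 0.10 (SE, adjusted p = 0.0311). Sars, Rars and Tars had TE differences of 0.48, 0.34 and 0.35, with adjusted p-values of 0.0222, 0.0326 and 0.0436 with the culture term. In each of these 3 genes the Nat1+/- ratios were below all 5 others and the Nat1-/- ratios overlapped those of WT. Sars2 ratios were 1.72, 1.82 and 1.44 in Nat1-/- cultures, 1.29, 1.02 and 1.18 in Nat1+/- cultures and 1.395 and 1.42 in WT cultures, lowest in Nat1+/- cultures, with a TE difference of 0.51 ± 0.13 (SE, adjusted p = 0.021). The ratios of Mars2, the mitochondrial methionyl enzyme, were 0.605, 0.632 and 0.607 in Nat1-/- cultures, 0.441, 0.448 and 0.407 in Nat1+/- cultures and 0.297 and 0.4096 in WT cultures. Nat1-/- cultures were highest and clear of both other genotypes, and the TE difference was 0.51 ± 0.13 (SE, adjusted p = 0.0232).

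**Figure D3:**
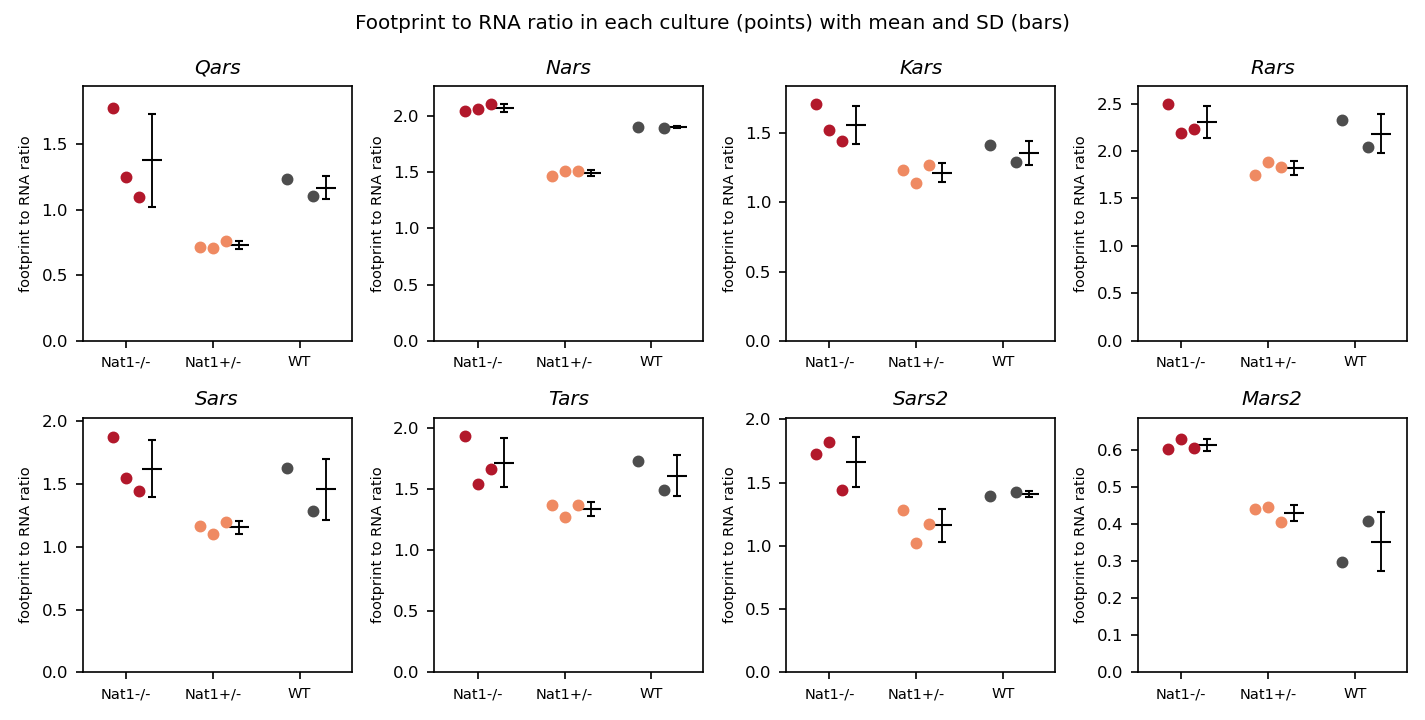
Ratio of RPF to total RNA in each of the 8 cultures for Qars, Nars, Kars, Rars, Sars, Tars, Sars2 and Mars2, with Nat1-/-, Nat1+/- and WT from left to right and lines at the group means. The 3 Nat1+/- cultures are lowest in every panel but that of Mars2, where WTex1 and WTex2 reach down to 0.297 and the 3 Nat1-/- cultures lie between 0.605 and 0.632.

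Across the cytosolic list the low group was Nat1+/-. The ratio was lower in all 3 Nat1+/- cultures than in any other culture for 10 of 20 cytosolic genes (Dars, Eprs, Gars, Kars, Lars, Nars, Qars, Rars, Sars and Tars) and for 3 of 16 mitochondrial genes (Rars2, Sars2 and Tars2), against 11% of all genes. It was higher in all 3 Nat1-/- cultures than in any other culture for 5 cytosolic genes (Cars, Kars, Lars, Nars and Yars) and for 6 mitochondrial genes (Cars2, Iars2, Mars2, Rars2, Sars2 and Tars2), against 6% of all genes. The median over the cytosolic genes of the log2 ratio, centred on each gene's mean over the 8 cultures, was 0.16, 0.09 and 0.09 in Nat1-/- cultures, -0.14, -0.13 and -0.09 in Nat1+/- cultures and 0.05 and -0.04 in WT cultures. Among the scaffold genes Aimp1 was called with the culture term, at 0.56 ± 0.12 (SE, adjusted p = 0.00996). Equal library sums lowered the TE medians to 0.15 for cytosolic and 0.12 for mitochondrial genes, and the median of all genes to -0.04.

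Measured within a culture, cytosolic synthetase mRNAs had more RPF per total RNA read than most genes. The median ratio over the 20 cytosolic genes was 1.50 in Nat1-/- cultures, 1.27 in Nat1+/- cultures and 1.36 in WT cultures, at a median percentile among all genes of 85.7, 81.4 and 83.6. For the mitochondrial genes the median ratios were 0.774, 0.725 and 0.772, at median percentiles of 50.1, 45.4 and 50.7, near the medians of all genes of 0.773, 0.779 and 0.763. Total RNA reads also come from untranslated regions and RPF largely do not, so the ratio of a gene depends on the coding share of its mRNA, which was not measured. Levels of different genes were not compared, since gene lengths were not used here.

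Within the Nat1-/- genotype, C3 was high across the ATF4-responsive list. This list of 12 cytosolic synthetases known as ATF4 targets (Aars, Cars, Eprs, Gars, Iars, Lars, Mars, Nars, Sars, Tars, Wars and Yars) was drawn up with earlier results of these data known. In all 12 genes C3 was the highest Nat1-/- culture, in RPF and in total RNA, where 43% and 39.6% of all genes had that order. B12 was the lowest of the 3 in 11 of the 12 genes in each assay, all but Eprs, against 38.8% and 35.2% of all genes. Among the other 8 cytosolic genes C3 was highest for Rars in RPF and for Rars and Farsb in total RNA. WTex2 was above WTex1 for 12 of 12 in each assay, against 51.2% and 49.3% of all genes, and so it was for 7 of the other 8 cytosolic genes in RPF and for 8 of 8 in total RNA.

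Lars, the leucyl enzyme, had RPF values of 8859.9, 12643 and 20164 in Nat1-/- cultures, 19108, 16876 and 16819.7 in Nat1+/- cultures and 9670.1 and 14508 in WT cultures, so that C3 held 2.28 times the value of B12. Nars RPF values were 12168, 16547 and 24680.1 in Nat1-/- cultures, 14413, 13283 and 11949 in Nat1+/- cultures and 10993 and 15701 in WT cultures, and C3 held 2.03 times the value of B12. The RPF of Cars, the cysteinyl enzyme, were 3457, 4452 and 7299 in Nat1-/- cultures, 5229, 4475 and 4090.3 in Nat1+/- cultures and 3257 and 4419.8 in WT cultures, with a C3 to B12 ratio of 2.11. In these 3 genes C3 was the highest of all 8 cultures and B12 was among the lowest 3. They had the 3 largest C3 to B12 ratios in RPF of the 36 synthetases, so their wide spread goes with that choice. Over the 12 genes the median of the highest over the lowest Nat1-/- culture was 1.50 in RPF and 1.70 in total RNA, against 1.43 and 1.42 over all genes. For their RPF to total RNA ratio it was 1.12, smaller than in RPF or total RNA. It was 1.16 for the other 8 cytosolic genes, 1.18 for the mitochondrial genes and 1.29 over all genes, which include genes with few reads. A small ratio spread was thus not particular to the 12 genes. Their median spread in Nat1+/- cultures was 1.20 in RPF. Means over the Nat1-/- cultures therefore join unlike lines for these genes. The SE values of Lars (0.27), Nars (0.25) and Cars (0.25) were larger than those of Dars (0.14) and Kars (0.13). Each SE pools the spread within all genotypes. The higher WT culture in RPF held 1.5, 1.43 and 1.36 times the lower for Lars, Nars and Cars, against 1.05 for Dars and 1.01 for Kars.

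**Figure D4:**
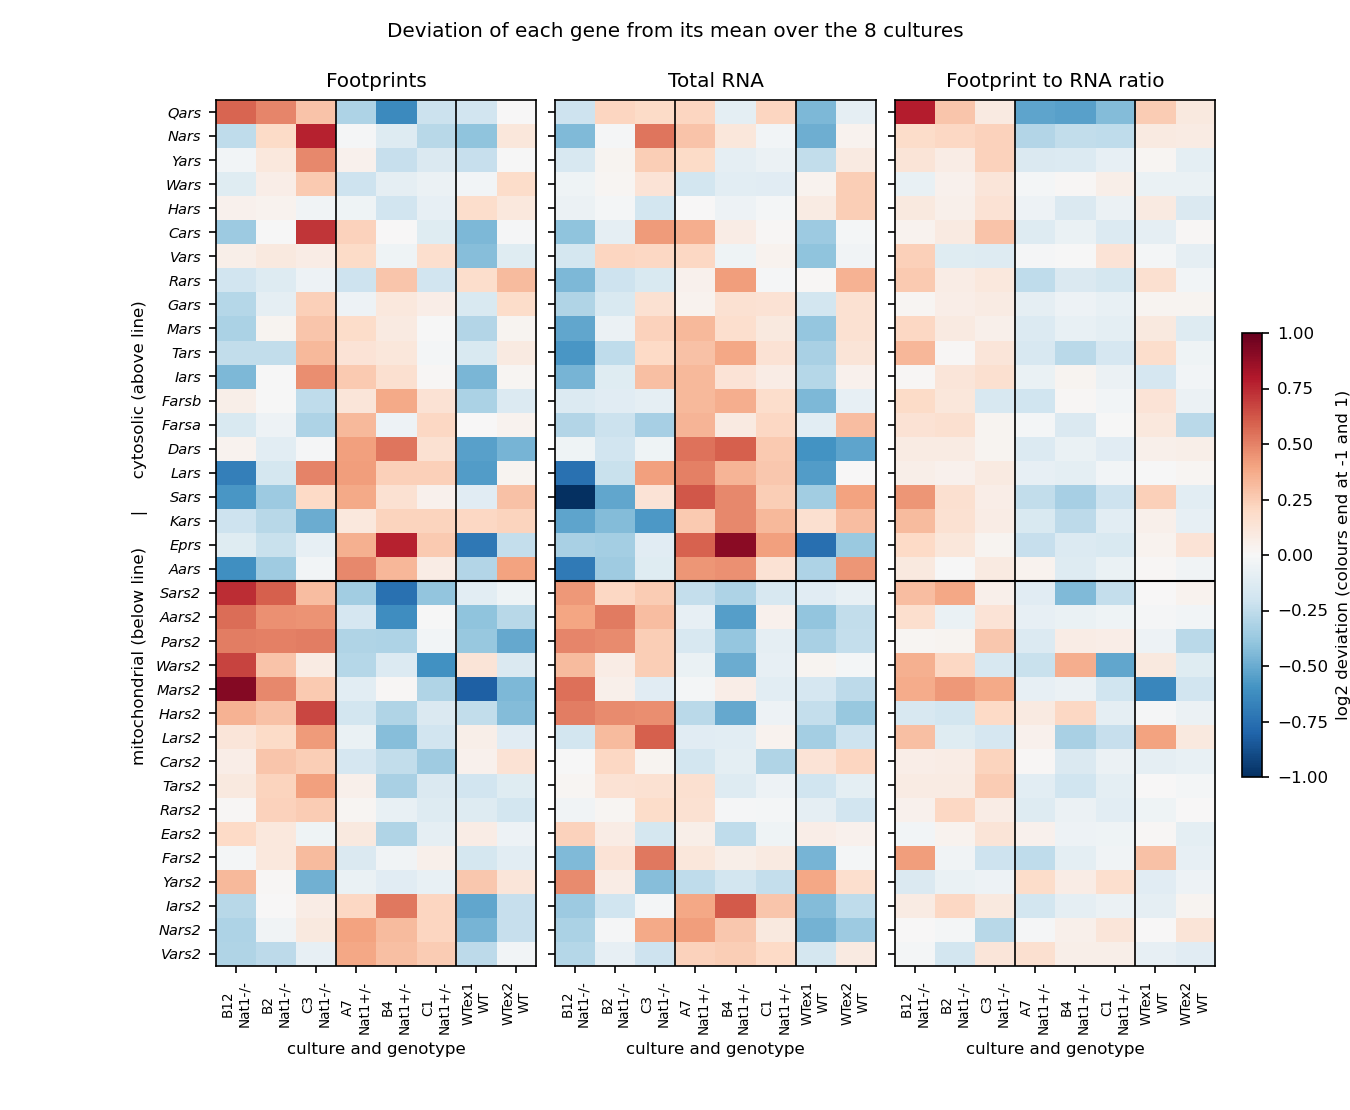
Log2 deviation of each synthetase from its mean over the 8 cultures, for RPF, total RNA and their ratio, with cytosolic genes above the line and mitochondrial genes below it and Nat1-/-, Nat1+/- and WT cultures from left to right. The cytosolic list medians in RPF are 0.22 in C3 and -0.20 in B12, and the mitochondrial list medians in the Nat1-/- cultures lie between 0.16 and 0.26, while single genes such as Kars and Vars2 run the other way.

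In RPF the median deviation of the 12 genes was -0.30, -0.05 and 0.30 in Nat1-/- cultures, 0.21, 0.11 and 0.01 in Nat1+/- cultures and -0.29 and 0.06 in WT cultures. A list of 8 genes that mark ATF4 activity (Atf4 itself and its targets Asns, Chac1, Trib3, Ddit3, Psat1, Sesn2 and Vldlr) had medians of -0.40, -0.27 and 0.17 in Nat1-/- cultures, 0.28, 0.18 and -0.12 in Nat1+/- cultures and 0.33 and 0.32 in WT cultures. C3 was the highest Nat1-/- culture for 5 of these 8 genes in RPF (Asns, Chac1, Ddit3, Psat1 and Vldlr), against 43% of all genes. B12 was the highest for Atf4, whose RPF values in B12, B2 and C3 were 7077, 5740 and 5368, and for Trib3. For Sesn2 it was B2. B12 was the lowest for 4 of the 8, against 38.8% of all genes. WTex2 was above WTex1 for 4 of the 8, against 51.2% of all genes. C3 was the highest Nat1-/- culture for 9 of the 16 mitochondrial synthetases in RPF and B12 the lowest for 8, against 43% and 38.8% of all genes. The mitochondrial medians were 0.16, 0.23 and 0.26 in Nat1-/- cultures, -0.08, -0.19 and -0.11 in Nat1+/- cultures and -0.18 and -0.14 in WT cultures, and the medians of the 3 Nat1-/- cultures stood above those of the 5 others. Between Nat1-/- and Nat1+/- cultures Atf4 itself rose by 0.93 ± 0.18 (SE, adjusted p = 0.00373) in RPF and by 0.93 in total RNA, while its target genes Psat1, Sesn2 and Vldlr fell in RPF by 0.67, 0.56 and 1.36. Vldlr RPF was 28.1, 33.7 and 100 in Nat1-/- cultures and 128, 127 and 104 in Nat1+/- cultures, with C3 near C1. Asns, Chac1, Trib3 and Ddit3 were not called in RPF, at -0.09, 0.35, 0.09 and -0.58. Of the 12 synthetases 2 were called in RPF, Aars and Eprs, both lower. Over all genes 36.1% were called in RPF, 17.6% higher and 18.6% lower.

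**Figure D5:**
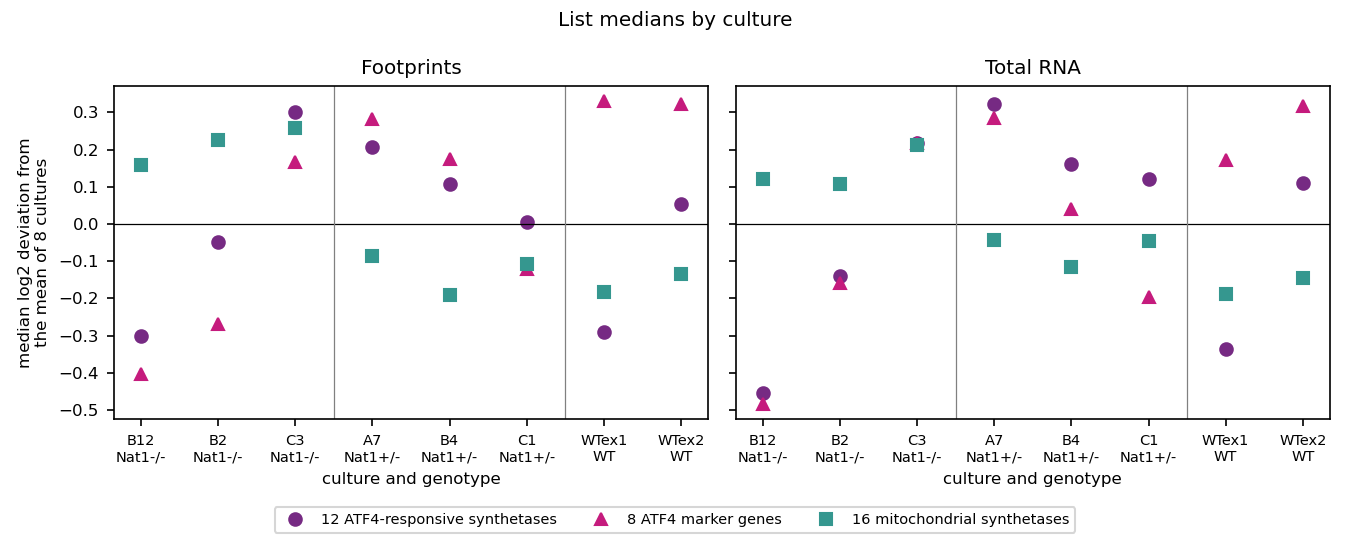
Median log2 deviation from each gene's mean over the 8 cultures, per culture, for the 12 ATF4-responsive synthetases, the 8 ATF4 markers and the 16 mitochondrial synthetases, in RPF and total RNA. In RPF the ATF4-responsive list runs from -0.30 in B12 to 0.30 in C3, and the mitochondrial list stays between 0.16 and 0.26 in the Nat1-/- cultures and below 0 in the 5 others.

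ATF4 binds with a partner to composite sites whose core reads TGATGNAA. RefSeq promoter windows, from 250 bases before to 50 after the start of the gene in GRCm38.p6, were at hand for 26 of the 36 genes, 12 cytosolic and 14 mitochondrial. On either strand TGATGNAA occurred in 5 of the 12 cytosolic windows and in 0 of the 14 mitochondrial windows, against 4.51% of 27025 windows of all genes. The narrower TGATGCAA, which is a case of TGATGNAA and not a separate motif, occurred in 4 cytosolic windows and in 1.03% of all. The stretch around TGATGCAA is shown for Iars, Tars and Yars, 3 genes of the ATF4-responsive list, to give the letters matched, with the match in capitals, read 5′ to 3′ on the strand that carries it.
Iars, chr13:49682126-49682155, - strand: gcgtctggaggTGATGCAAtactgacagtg
Tars, chr15:11399655-11399684, + strand: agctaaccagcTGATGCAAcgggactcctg
Yars, chr4:129189895-129189924, + strand: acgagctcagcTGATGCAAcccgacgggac
Along the gene's own strand, with 0 at its first base, the match begins at 7 in Iars, -15 in Tars and 3 in Yars. CACGTG, the E-box, was found in 4 cytosolic windows (Farsb, Iars and Tars among them), in 1 mitochondrial window (Ears2) and in 8.09% of all windows. GCATGCGC, part of the NRF-1 consensus, was found in 0 cytosolic and 3 mitochondrial windows (Rars2, Vars2 and Wars2) and in 3.05% of all. A match describes the letters of the window only.

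The RPF values of the genes with a printed site follow, and as members of the ATF4-responsive list all were counted above among those highest in C3. Iars, the isoleucyl enzyme, had 6807, 9281 and 12851 in Nat1-/- cultures, 11159, 10423 and 9405 in Nat1+/- cultures and 6789 and 9428 in WT cultures. Tars, the threonyl enzyme, had 7032, 7035 and 10405 in Nat1-/- cultures, 9141, 9008 and 8198 in Nat1+/- cultures and 7488 and 8834 in WT cultures, with B12 and B2 alike and C3 above them. Yars, the tyrosyl enzyme, had 5302, 5824 and 7559.5 in Nat1-/- cultures, 5589, 4620.2 and 4889 in Nat1+/- cultures and 4621 and 5391 in WT cultures. None of these 3 genes was called between Nat1-/- and Nat1+/- cultures, at -0.14 for Iars, -0.13 for Tars and 0.30 for Yars.

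Comparisons with WT rest on 2 WT cultures and share cultures with the comparison above, so each is given by its own values. Between Nat1-/- and WT cultures a smaller share of the synthetases was called than of all genes in both assays. Most of the synthetases called were mitochondrial. In RPF 8 synthetases were called, 7 higher and 1 lower, where 34.8% of all genes were called, 16.5% higher and 18.3% lower. The higher ones were Mars2 at 1.19 ± 0.23 (SE, adjusted p = 0.00325), Pars2 at 0.95 ± 0.19 (SE, adjusted p = 0.0037), Aars2 at 0.83, Hars2 at 0.78, Sars2 at 0.62, Qars at 0.54 and Dars at 0.48, and Kars was lower at -0.54 ± 0.14 (SE, adjusted p = 0.0169). In total RNA 5 were called, 4 higher and 1 lower, where 35% of all genes were called, 16.2% higher and 18.9% lower. Hars2 rose by 0.79 ± 0.16 (SE, adjusted p = 0.00384), Aars2 by 0.73, Pars2 by 0.69 and Dars by 0.47, and Kars fell by 0.74 ± 0.13 (SE, adjusted p = 0.00184).

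Equal library sums shifted the median of all genes in this comparison by -0.11 in RPF and -0.12 in total RNA, and the share of calls that were higher to 36.2% in RPF and 34.2% in total RNA, against 47.5% and 46.1%. Under that scaling 4 synthetases were higher and 1 lower in RPF, all higher ones mitochondrial, and 3 were higher and 4 lower in total RNA. Fits without WTex1 or WTex2 keep a single WT culture and cannot be used to judge calls. Without B2 the RPF calls numbered 5, where 3104 of all genes were called, against 4567 in the main fit. In total RNA they numbered 8 without B12, where 5216 of all genes were called, against 4839. Pars2 was the only one of the 8 RPF calls that held in all 18 settings. In TE, 0 of the 36 genes was called without the culture term, with 1 at an unadjusted p below 0.05, where 0.00773% of all genes were called, and 0.11 was the median of both lists. With the culture term, and by edgeR, Mars2 alone was called, at 0.81 ± 0.14 (SE, adjusted p = 0.024), where 1.22% of all genes were called, 0.232% higher and 0.99% lower. The Mars2 call was lost without B2, A7, B4, C1 or WTex1.

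Nat1-/- and WT cultures did not overlap for 17 of the 36 genes in RPF, 13 higher and 4 lower, against 59.6% of all genes, 30.7% higher and 28.9% lower. All 9 of the mitochondrial genes among these were higher, and the cytosolic ones were 4 higher and 4 lower. In total RNA the groups did not overlap for 16 genes, 12 higher and 4 lower, against 60% of all genes, 30% in each direction. There 10 mitochondrial genes were higher and 0 lower, against 2 cytosolic genes higher and 4 lower. The ratio of RPF to total RNA did not overlap for 14 genes, 13 higher and 1 lower, against 27.4% of all genes, 14.7% higher and 12.7% lower. With only 2 WT cultures, RPF and total RNA groups separate by this count in most genes.

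Between Nat1+/- and WT cultures 4 genes were called in each assay, all higher. In RPF these were Eprs at 0.94 ± 0.20 (SE, adjusted p = 0.0262), Dars at 0.87 ± 0.15 (SE, adjusted p = 0.0171), Iars2 at 0.69 and Nars2 at 0.66, where 10.5% of all genes were called, 5.35% higher and 5.13% lower. In total RNA they were Eprs at 1.20 ± 0.18 (SE, adjusted p = 0.0105), Dars at 1.03 ± 0.14 (SE, adjusted p = 0.00871), Iars2 at 0.77 and Farsb at 0.55, where 10% of all genes were called, 4.6% higher and 5.41% lower. Equal library sums left 3 of the total RNA calls and moved the share of all calls that were higher to 28.1%, against 46.0%. Fits without WTex1 or WTex2 keep a single WT culture and cannot be used to judge calls. The called differences kept their direction in them. In RPF there was no call without A7, 1 without B2 and 2 without B4 or C1. Among all genes 84 were called without A7, 457 without B2, 1207 without B4 and 388 without C1. The main fit called 1374. In total RNA there were 2 calls without A7 and 7 without C3, where 186 and 2846 of all genes were called, against 1383. Nat1+/- and WT cultures did not overlap for 17 genes in RPF, 11 higher and 6 lower, against 55.3% of all genes, 27.3% higher and 28.1% lower, and for 20 genes in total RNA, 14 higher and 6 lower, against 54.6%, 26% higher and 28.6% lower. The ratio did not overlap for 19 genes, 4 higher and 15 lower, against 43.8% of all genes, 24.4% higher and 19.3% lower. TE differences were negative for 16 of 20 cytosolic genes, with a median of -0.09. No gene was called in TE by limma, where 0% of all genes were called without the culture term and 1.13% with it, 0.696% higher and 0.433% lower. At an unadjusted p below 0.05 there were 1 of the 36 genes without that term and 8 with it, and edgeR called Qars lower (adjusted p = 0.0496).

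Across all 3 genotypes, 12 genes had the 3 cultures of a targeted genotype on 1 side of the 5 other cultures in both assays. The percentages that follow are shares of all genes in RPF and in total RNA taken singly. The share of all genes with a pattern in both assays at once was not counted and cannot be larger. Dars, Eprs, Farsb, Iars2 and Vars2 had all 3 Nat1+/- cultures above the 5 others in RPF and in total RNA, where 8.01% and 8.25% of all genes did. Cars2 and Sars2 had them below the 5 others in both assays, where 10% and 10.9% did. Kars and Farsa had all 3 Nat1-/- cultures below the 5 others in both assays, where 17.5% and 18.2% did. Aars2, Hars2, Pars2 and Sars2 had the Nat1-/- cultures above the 5 others in both assays, where 16.5% and 17.7% did.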

How the data were processed

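RPF and total RNA of 8 cultures (3 Nat1-/-, 3 Nat1+/-, 2 WT) gave 16 libraries. Per the submitters' processing notes, the tools named are HTSeq 0.6.1, TopHat2 2.1.0 and Bowtie2 2.2.8, besides DESeq2, cutadapt 1.9.1 and bcl2fastq 2.17, and the builds are mm10 and GRCm38.p4. No source used here gives strand or multi-mapping settings. The authors deposited the values as a size-factor normalised signal per gene. Within a tolerance of 0.01, 100% of values were whole multiples of 1 read, so whole reads were recovered for edgeR 4.0.16 and DESeq2 1.42.0 as alternatives.

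Main tests were limma 3.58.1 (R 4.3.3, eBayes with trend) on log2(value + 1) for genes with a mean of at least 10, 3 genotype means per assay over 8 libraries, and an assay by genotype interaction over 16 libraries for TE, with Benjamini-Hochberg adjustment over all genes tested and a threshold of 0.05. The fits were also run on simulated data, drawn without any effect of culture or line. That run cannot show how the fits treat differences among lines or the pairing of a culture's libraries. RPF and total RNA of a culture pair by their labels, and their deviations correlated at 0.487 to 0.863, best with their own partner in 8 of 8 cultures, so TE values with a culture term stand beside the main ones. Replicates of targeted genotypes are lines and those of WT are cultures of a single line, and p-values measure only this spread. Members, lists and tests were chosen with earlier results of these data known.

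Named genes were all 36, with values per culture for up to 12 called between Nat1-/- and Nat1+/- by smallest adjusted p, and their counterparts in the other compartment. Alternatives were other filters, pseudocounts, scalings, tools and blocks, and each culture left out. A further matched promoter stretch is not reported here. Figures were drawn with matplotlib 3.10.9.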

Additional observations from a re-analysis of the deposited data

How the results depend on the processing

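The limits are 2 WT cultures, 3 lines per targeted genotype and low reads for Wars2. The 1089 values under alternatives are of single genes called in the main fit or, in TE, with the culture term. Of these, 880 kept direction and side of the threshold, 150 lost the call, 59 gained one and 0 changed direction. All 59 gains were in TE, in genes entered because the culture term called them. Genes that gained a call in RPF or total RNA only under an alternative were not entered. Gains and losses therefore cannot be weighed against each other. Calls between Nat1-/- and Nat1+/- cultures numbered 6 to 16 in RPF (14 in the main fit) and 7 to 18 in total RNA (13) when each culture was left out, and 0 to 1 in TE (0). Between Nat1-/- and WT cultures they numbered 2 to 9 in RPF (8), 2 to 8 in total RNA (5) and 0 to 0 in TE (0), and between Nat1+/- and WT cultures 0 to 5 in RPF (4), 0 to 7 in total RNA (4) and 0 to 0 in TE (0). Other settings moved Nat1-/- against WT to 5 in RPF with equal library sums and to 8 in total RNA with DESeq2. For Nat1+/- against WT they gave 1 in RPF and 2 in total RNA without a trend, and 7 in total RNA with only the 2 genotypes fitted. The ranges against WT include fits that keep a single WT culture. Counts over all genes moved with the left-out culture too, as given above. The cause was not tested.

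With the replicate number as a block, calls for Nat1+/- against WT numbered 1 in RPF and 2 in total RNA, and those for Nat1-/- against Nat1+/- 12 and 14. Correlations of same-numbered cultures ran from -0.186 for B12 and A7 to 0.418 for B12 and WTex1, both in total RNA. They cannot settle whether the numbers pair samples across genotypes. The deviations of the 2 WT cultures from their mean mirror each other, so those with WT are not independent. In TE the culture-term block, and edgeR with it, gave 8 calls for Nat1-/- against Nat1+/- and 1 for Nat1-/- against WT, and edgeR gave 1 for Nat1+/- against WT. With that block and each culture left out, a setting chosen after seeing the data, calls ran from 2 to 9, 0 to 1 and 0 to 2 in the 3 comparisons.

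For Nat1-/- against Nat1+/-, equal library sums gave medians of 0.34 for mitochondrial RPF, 0.15 for cytosolic TE and 0.12 for mitochondrial TE. The medians over all genes were then -0.06 in RPF and -0.04 in TE. Leaving out each culture gave 0.34 to 0.49 for mitochondrial RPF (0.42), -0.23 to -0.03 for cytosolic RPF (-0.11), 0.18 to 0.26 for mitochondrial total RNA (0.22), -0.47 to -0.19 for cytosolic total RNA (-0.36), 0.18 to 0.22 for cytosolic TE (0.20) and 0.13 to 0.20 for mitochondrial TE (0.18).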
